A study of Mus musculus with 24 samples.

Results

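CC chemokines are small secreted proteins that carry adjacent cysteines near their amino terminus, and their receptors are membrane-spanning proteins that signal through inhibitory G proteins to steer migrating leukocytes. In inflamed skin and in tumors, inflammatory ligands of this family call in monocytes, T cells and natural killer cells, while a second, homeostatic branch guides dendritic cells and lymphocytes toward lymphatic vessels and lymph nodes. Their mRNA was examined here through 9 genes, chosen by name among the 24421 genes of a raw count table: the ligands Ccl2, Ccl7, Ccl8, Ccl3, Ccl4, Ccl5 and Ccl22 and the receptors Ccr2 and Ccr7. All 9 were found in the table, and all 9 passed the filter on low counts that left 17214 genes for testing.

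RNA-seq was run on 24 melanomas from TN mice on a C57BL/6 background. There were 4 homozygous Nras genotypes with 6 tumors apiece: 61H/H, 61L/L, 61K/K and 61R/R. TN mice carry Tyr::CreERT2, a tamoxifen-dependent Cre driven by the melanocyte promoter Tyr, together with an LSL-Nras allele on both copies of the endogenous locus, so that removal of the stop cassette turns on the mutant NRAS. The letters name the amino acid encoded at codon 61 on both alleles: histidine, leucine, lysine or arginine. The K, L and H alleles were made from the 61R allele with CRISPR-Cas9. All groups shared the same treatment, 4-hydroxytamoxifen at 20 mM applied to the skin on postnatal days 1 and 2, and all tumors arose spontaneously and were collected when the mouse met its exclusion criteria. Because Cre acts in melanocytes, blood and stromal cells were not targeted, and no sorting of cells is described for the frozen tumors. The methods also describe a dose of ultraviolet B after the tamoxifen, while the labels, which call the melanomas spontaneous, do not mention it, so whether these mice received it is not known here. The ages of the mice are not in the labels. The titles of 61H/H replicates 4 and 5 share a number, and whether both tumors came from 1 mouse is not stated. The female transcript Xist, as log2 of CPM plus 1, was at 0.33 and 11.2 in them, and they were kept as separate tumors.

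Libraries held 31.9 M to 43.8 M reads assigned to genes. Nras itself had a mean of 155 ± 52.0 counts per M counted reads (CPM) in 61R/R, 122 ± 52.6 in 61K/K, 135 ± 43.1 in 61L/L and 189 ± 23.4 in 61H/H (SD, n = 6 each), and it was called in no pair of genotypes, with an adjusted p of 0.117 for 61H/H against 61K/K (edgeR). Of 7 melanocyte markers, Sox10 and Mitf were present in every tumor, with lowest levels of 110 and 21.1 CPM. Pigment genes were uneven: Tyrp1 had tumors with no read in all 4 genotypes and Dct in all but 61H/H, Mlana had no read in a 61H/H tumor, and Tyr went down to 1 or 2 reads in all but 61L/L. The count table named its columns in 2 styles, and 6 libraries had the less common one, namely 61H/H replicate 6, 61L/L replicate 6, 61R/R replicate 3 and, in 61K/K, replicates 1, 3 and 6. What that style stands for is not given, so values within the other 18 libraries are given beside the calls of members, and for gene lists as the number of calls that held. Tumor titles also carry an allele code. It equals the genotype in all tumors but those of 61R/R, which carry 61K, 61L or 61P in pairs, so that 61H/H cannot be told apart from its code in any comparison, nor 61K/K from its code against 61H/H or 61L/L.

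The members sit on 3 chromosomes of the mouse genome (mm10). Chromosome 11 holds 7 of the 9. The monocyte chemoattractants lie along its forward strand, Ccl2 at 82035577 to 82037452, Ccl7 at 82045712 to 82047523 and Ccl8 at 82115185 to 82116799. Farther along are Ccl5 at 83525779 to 83530518 and Ccl3 at 83647843 to 83649378, both on the reverse strand, then Ccl4 at 83662584 to 83664683 on the forward strand, and Ccr7 at 99144199 to 99155077 on the reverse strand. Ccl22 lies on chromosome 8 at 94745684 to 94751388 and Ccr2 on chromosome 9 at 124102183 to 124109140, both forward. The counts of each gene are summed over its exons.

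Promoter windows from RefSeq (GRCm38.p6) were matched for 4 of the 9 members, Ccl8, Ccr2, Ccl3 and Ccl22; Ccl2, Ccl7, Ccl4, Ccl5 and Ccr7 were not matched. The 250 bases before the start are shown for Ccl8 and Ccr2, the pair whose levels fell in 61H/H against 61K/K and for which a window was at hand, at chr11:82114935-82115184 and chr9:124101933-124102182 on the forward strand. Capitals mark matches to TATAAA (the TATA box) or AGGAAG (an ETS motif of the PU.1 type) on either strand.
Ccl8: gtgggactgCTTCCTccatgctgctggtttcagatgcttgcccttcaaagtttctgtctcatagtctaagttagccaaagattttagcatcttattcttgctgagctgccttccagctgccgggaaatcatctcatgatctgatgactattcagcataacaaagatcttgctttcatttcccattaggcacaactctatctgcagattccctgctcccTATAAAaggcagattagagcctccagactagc
Ccr2: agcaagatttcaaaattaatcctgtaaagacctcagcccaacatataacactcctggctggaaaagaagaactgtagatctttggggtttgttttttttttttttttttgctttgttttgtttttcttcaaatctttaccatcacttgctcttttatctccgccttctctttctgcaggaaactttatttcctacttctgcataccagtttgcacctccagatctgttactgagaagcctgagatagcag
The Ccl8 window held TATAAA from 32 to 27 bases before the start and AGGAAG on the reverse strand from 241 to 236 bases before it. The Ccr2 window held neither. TATAAA was in 12.4% and AGGAAG in 29.5% of 32851 windows of this length. The letters TGANTCA (AP-1), in 6.75% of windows, were in none of the 4, and the Ccl22 window held 1 AGGAAG match on the reverse strand, from 17 to 12 bases before its start. No match overlapped another in these windows.

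Per length of transcript, the ligand Ccl8 was the most abundant of the 9 mRNAs. Its mean over the 24 tumors was 201 reads per kilobase per M reads (RPKM), against 17.3 RPKM for the receptor Ccr2, 10.1 for Ccl2, 5.95 for Ccl7 and 5.39 for Ccl5. Ccl22 at 1.63 RPKM, Ccl3 at 1.24, Ccl4 at 0.982 and Ccr7 at 0.957 were scarce. All further levels are in CPM, which compares 1 gene between tumors and not genes with each other. Between the lowest and the highest of the 24 tumors, CPM spanned 8.84-fold for Ccl5, the least variable member, and 132-fold for Ccl4.

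**Figure D1:**
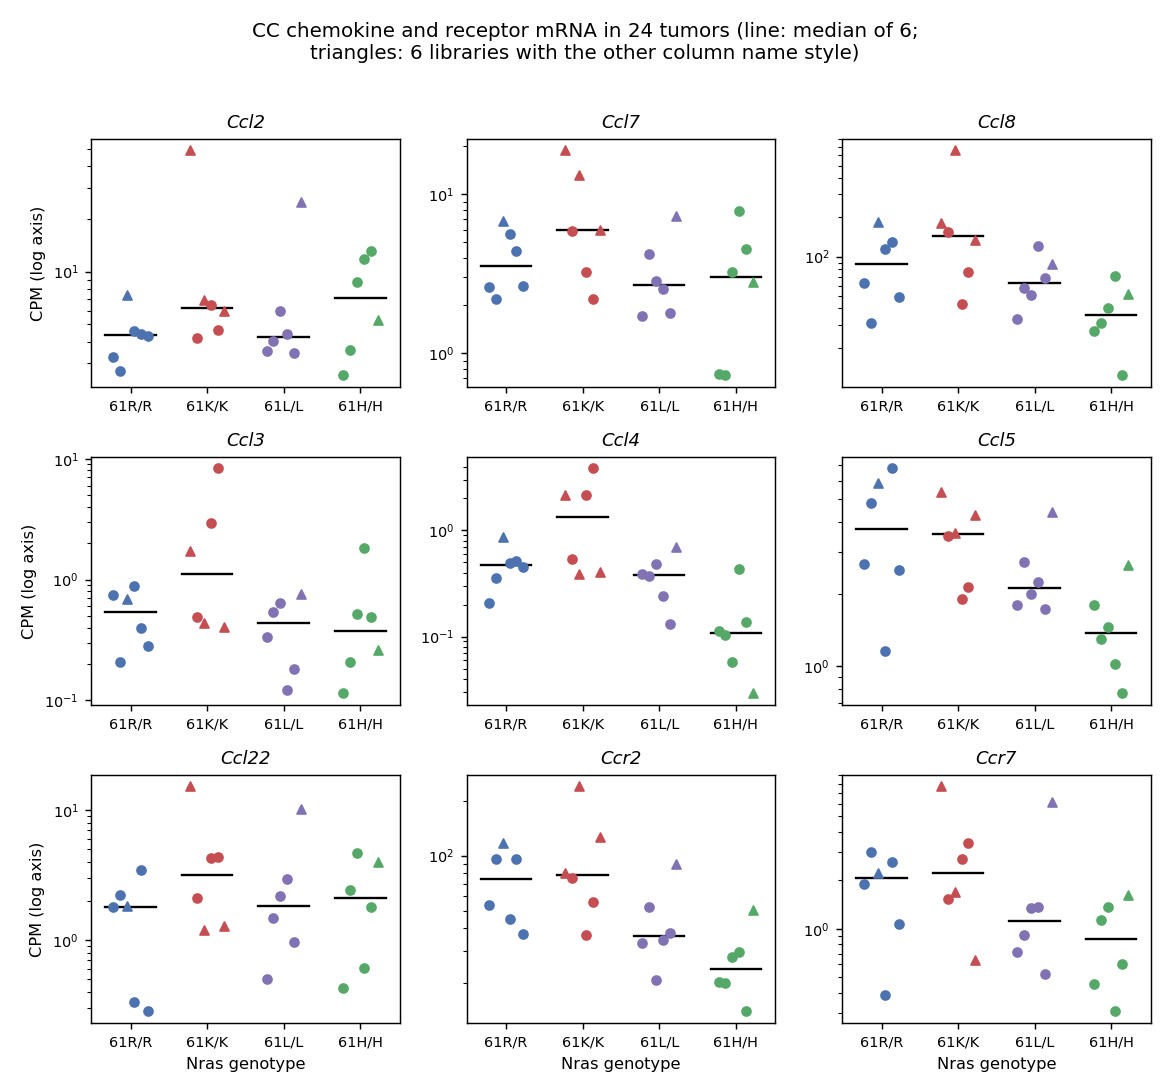
Level of each member in CPM (log axis) in each of 24 tumors by Nras genotype, with circles and triangles for the 2 column name styles and a line at the median of 6. Ccr2, Ccl8, Ccl5, Ccl4, Ccl3 and Ccr7 have their lowest median in 61H/H, while single 61K/K and 61L/L tumors stand far above the rest for Ccl2, Ccl22 and Ccr7.

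Ccr2 is the receptor through which inflammatory monocytes leave the bone marrow and enter tissue. It ranged from 37.3 to 116 CPM in 61R/R (median 74.6), from 36.6 to 239 CPM in 61K/K (median 77.8), from 20.9 to 89.6 CPM in 61L/L (median 36.1) and from 14.0 to 50.3 CPM in 61H/H (median 24.1). The highest level was in 61K/K replicate 3 and the lowest in 61H/H replicate 5; 5 of 6 61H/H tumors were below the lowest 61K/K tumor, so the genotypes touched only through 61H/H replicate 6. In the edgeR quasi-likelihood fit of all 24 tumors, Ccr2 was 3.78-fold lower in 61H/H than in 61K/K (log2 fold change -1.92 ± 0.43 SE, adjusted p = 0.0106). Within the 18 libraries, which hold only 3 61K/K tumors, it was -1.33 and missed the threshold (adjusted p = 0.0663). Against 61R/R the same 61H/H tumors gave a log2 fold change of -1.45 ± 0.43, just short of the threshold (adjusted p = 0.0718), and -1.57 within the 18 libraries, past it (adjusted p = 0.0455).

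The ligands of CCR2 include CCL2 and CCL7, 2 monocyte chemoattractants, and neither mRNA passed the test in any pair of genotypes. Ccl2 ranged from 2.71 to 7.40 CPM in 61R/R (median 4.36), from 4.21 to 48.9 CPM in 61K/K (median 6.19), from 3.45 to 24.8 CPM in 61L/L (median 4.23) and from 2.56 to 13.1 CPM in 61H/H (median 7.03). The 48.9 and 24.8 CPM belonged to 61K/K replicate 1 and 61L/L replicate 6 alone, and the next tumors of those genotypes were at 6.94 and 5.94 CPM, so the ranges of all 4 genotypes overlapped. The medians placed 61H/H highest for Ccl2, the opposite of Ccr2, yet the log2 fold change of 61H/H against 61K/K was -0.78 ± 0.62 (edgeR, adjusted p = 0.447). It turned to 0.38 without 61K/K replicate 1 and to 0.64 within the 18 libraries, so the sign rested on 1 tumor.

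Ccl7 ranged from 2.21 to 6.84 CPM in 61R/R (median 3.53), from 2.20 to 18.9 CPM in 61K/K (median 5.94), from 1.71 to 7.25 CPM in 61L/L (median 2.69) and from 0.725 to 7.83 CPM in 61H/H (median 3.01). Its highest tumor was again 61K/K replicate 1, followed by 61K/K replicate 3 at 13.2 CPM, and the genotypes overlapped. The log2 fold change of 61H/H against 61K/K was -1.32 ± 0.57 (edgeR, adjusted p = 0.144), and it passed the threshold only when 61H/H replicate 4 was left out (-1.82, adjusted p = 0.0446).

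CCL8 is a monocyte chemoattractant in humans and in mice acts on CCR8. Ccl8 ranged from 31.0 to 185 CPM in 61R/R (median 88.5), from 43.2 to 656 CPM in 61K/K (median 144), from 33.4 to 120 CPM in 61L/L (median 63.2) and from 12.2 to 71.0 CPM in 61H/H (median 35.5). The tumor at 656 CPM was 61K/K replicate 3, the one with the most Ccr2, and 4 of 6 61H/H tumors lay below the lowest 61K/K tumor. Ccl8 was 5.34-fold lower in 61H/H than in 61K/K (log2 fold change -2.42 ± 0.57, edgeR adjusted p = 0.0130). Without 61K/K replicate 3 the value was -1.62 (adjusted p = 0.0637) and within the 18 libraries -1.34 (adjusted p = 0.193), and neither passed.

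CCL3 and CCL4, the macrophage inflammatory proteins, and CCL5 (RANTES) are inflammatory ligands, of which CCL3 and CCL5 bind CCR1. Macrophages, T cells and natural killer cells release them on activation. Ccl4 ranged from 0.209 to 0.865 CPM in 61R/R (median 0.473), from 0.387 to 3.85 CPM in 61K/K (median 1.34), from 0.131 to 0.704 CPM in 61L/L (median 0.378) and from 0.0291 to 0.434 CPM in 61H/H (median 0.109). Within 61K/K the tumors fell apart, with replicates 1, 4 and 5 at 2.15 CPM or more and replicates 2, 3 and 6 at 0.54 CPM or less, and 5 of 6 61H/H tumors were below them all. Ccl4 fell the furthest of the 9 members in 61H/H against 61K/K, by 3.40 ± 0.65 on the log2 scale (edgeR adjusted p = 0.00604). The call held within the 18 libraries (-3.64, adjusted p = 0.0303) and without any 1 of the 12 tumors. The 61H/H levels rest on 1 to 17 reads a tumor, so the size of the fold is poorly fixed, with a 95% interval from -4.75 to -2.04.

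Ccl3 shared the split within 61K/K, and its 61H/H levels, like those of Ccl4, overlapped those of every other genotype. For Ccl3, 3 of 6 61H/H tumors were below the lowest 61K/K tumor. It ranged from 0.209 to 0.882 CPM in 61R/R (median 0.543), from 0.405 to 8.33 CPM in 61K/K (median 1.11), from 0.121 to 0.758 CPM in 61L/L (median 0.436) and from 0.114 to 1.81 CPM in 61H/H (median 0.377). The 3 highest tumors of 61K/K were again replicates 5, 4 and 1, and the genotypes overlapped. The largest log2 fold change of any member in 61K/K against 61R/R was that of Ccl3, 2.15 ± 0.75, which failed the correction over all genes (edgeR adjusted p = 0.774). The log2 fold change of 61H/H was -2.06 ± 0.75 against 61K/K (adjusted p = 0.0819) and 0.09 ± 0.73 against 61R/R (adjusted p = 0.975). The former passed without 61H/H replicate 4 (-2.91, edgeR adjusted p = 0.0160) and in DESeq2 (adjusted p = 0.0281).

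For Ccl5, 61R/R had both the highest tumor and the highest median, which held for no other ligand. It ranged from 1.16 to 6.75 CPM in 61R/R (median 3.76), from 1.91 to 5.39 CPM in 61K/K (median 3.56), from 1.72 to 4.44 CPM in 61L/L (median 2.12) and from 0.764 to 2.65 CPM in 61H/H (median 1.38). 5 of 6 61H/H tumors lay below the lowest 61K/K tumor, but 61R/R replicate 4, at 1.16 CPM, lay among the 61H/H tumors. The log2 fold changes of 61H/H were -1.22 ± 0.39 against 61K/K and -1.41 ± 0.39 against 61R/R, both just short of the threshold in edgeR (adjusted p = 0.0507 and 0.0585). DESeq2 called both, with adjusted p-values of 0.0155 and 0.00879.

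CCL22 is made by mature dendritic cells and macrophages and draws in T cells that carry CCR4, while CCR7 is the receptor that brings mature dendritic cells and naive T cells to lymph nodes. Ccl22 ranged from 0.282 to 3.45 CPM in 61R/R (median 1.81), from 1.19 to 15.3 CPM in 61K/K (median 3.19), from 0.497 to 10.3 CPM in 61L/L (median 1.82) and from 0.427 to 4.67 CPM in 61H/H (median 2.12). Ccr7 ranged from 0.386 to 2.98 CPM in 61R/R (median 2.06), from 0.637 to 7.69 CPM in 61K/K (median 2.21), from 0.522 to 6.17 CPM in 61L/L (median 1.12) and from 0.306 to 1.63 CPM in 61H/H (median 0.870). For both genes the 2 highest of all tumors were 61K/K replicate 1 and 61L/L replicate 6, the same pair that stood out for Ccl2, and the genotypes overlapped. In 61H/H against 61K/K the log2 fold changes were -1.03 ± 0.78 for Ccl22 (adjusted p = 0.418) and -1.68 ± 0.64 for Ccr7 (adjusted p = 0.0991), short of the threshold in edgeR. DESeq2 called Ccr7 (adjusted p = 0.0412) and not Ccl22.

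Between 61H/H and 61K/K, then, 3 of 9 members (Ccl4, Ccl8 and Ccr2) were lower in 61H/H and none was higher at an adjusted p under 0.05, beside 5.07% of all tested genes called lower and 9.36% called in either direction. At an unadjusted p under 0.05 it was 7 of 9, all but Ccl2 and Ccl22, beside 26.3% of all genes. All 9 fold changes were below 0, beside 49.5% of all genes, and their median was -1.68 beside 0.01 over all tested genes.

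Between 61H/H and 61R/R, which shares the 61H/H tumors, edgeR called no member, beside 2.02% of all genes. At an unadjusted p under 0.05 it was 4 of 9 (Ccl4, Ccl5, Ccl8 and Ccr2), beside 15.8% of all genes, and DESeq2 called 2, Ccl5 and Ccr2, beside 4.93% of all genes. The fold change was below 0 for 6 of 9 members, beside 48.5% of all genes, and the exceptions were Ccl2 at 0.75 ± 0.62, Ccl22 at 0.50 ± 0.78 and Ccl3.

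**Figure D2:**
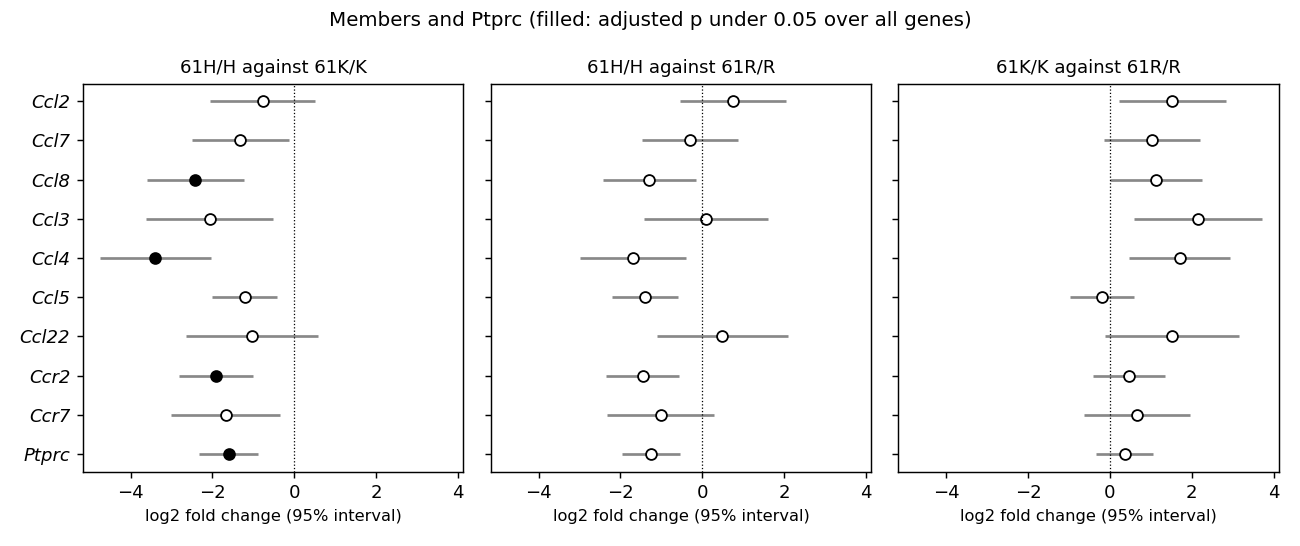
Log2 fold change with its 95% interval for the 9 members and Ptprc in 3 of the 6 comparisons, with filled points where the adjusted p over all genes was under 0.05. Ccl8 at -2.42, Ccl4 at -3.40 and Ccr2 at -1.92 are filled in 61H/H against 61K/K, as is Ptprc, and no point is filled in the other panels.

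No member was called in any of the remaining 4 comparisons, in each of which edgeR called 0 of 17214 genes (0%). For 61K/K against 61R/R, 1 of 9 fold changes was below 0, beside 48.4% of all genes; they went from -0.19 for Ccl5 to 2.15 for Ccl3, and 3 members (Ccl2, Ccl3 and Ccl4) had an unadjusted p under 0.05, beside 5.15% of all genes. For 61L/L against 61K/K all 9 were below 0, beside 51.5% of all genes, from -2.46 for Ccl3 to -0.48 for Ccl5, and 5 members had an unadjusted p under 0.05, beside 8.09% of all genes. Against 61R/R, 61L/L had 7 of 9 below 0, beside 51.4%, and 0 of 9 with an unadjusted p under 0.05, beside 5.55%. Against 61L/L, 61H/H had 8 of 9 below 0, beside 46.2%, and 1 of 9 (Ccl4) with an unadjusted p under 0.05, beside 11.2%. DESeq2 called no member in these 4 comparisons, and 3, 42, 31 and 56 genes in all, in the order given. Tested over the 4 genotypes at once, Ccl4 (adjusted p = 0.0228) and Ccr2 (adjusted p = 0.0456) differed, beside 2.72% of all genes, and Ccl8 did not pass (edgeR adjusted p = 0.0559). Within the 18 libraries neither Ccl4 (adjusted p = 0.0584) nor Ccr2 (adjusted p = 0.0982) passed this test.

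The level of Ptprc, which encodes the pan-leukocyte surface protein CD45, differed between the same groups. Its median was 103 CPM in 61R/R, 131 in 61K/K, 64.8 in 61L/L and 37.1 in 61H/H, and it was 3.04-fold lower in 61H/H than in 61K/K (log2 fold change -1.60 ± 0.35, edgeR adjusted p = 0.00907). Within the 18 libraries its value was -1.29 (adjusted p = 0.0808). The highest tumor was 61K/K replicate 3 at 232 CPM and the lowest was 61H/H replicate 5 at 19.9 CPM, the same 2 tumors as for Ccr2 and Ccl8. In whole tumors, fewer cells of a type and less RNA per cell cannot be told apart. The paper stained tumor sections for the protein encoded by Ptprc and reports that immune infiltration did not differ among the genotypes. Whether the stained tumors were the sequenced ones is not stated, and the relation of Ptprc mRNA to the staining was not tested.

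With log2 CPM of Ptprc added to the fit as a covariate, the values of the 9 members moved by unlike amounts. Ptprc itself differed between 61H/H and 61K/K and had r = 0.969 with Ccr2. A small value for Ccr2 therefore follows largely from that relation. The log2 fold change of 61H/H against 61K/K moved to 0.0055 for Ccr2, -0.14 for Ccl8, 0.075 for Ccl5, -0.028 for Ccl7 and 0.015 for Ccl2, with adjusted p-values above 0.9 in each case (edgeR). Those of Ccl4 and Ccl3 were -3.53 and -2.32, with edgeR adjusted p-values of 0.311 and 0.439. Ccl22 stood at 0.25 and Ccr7 at -0.69. No gene of the 17214 was called for this pair with the covariate, against 1612 without it, so these are values with no call. Members were not tested against each other.

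**Figure D3:**
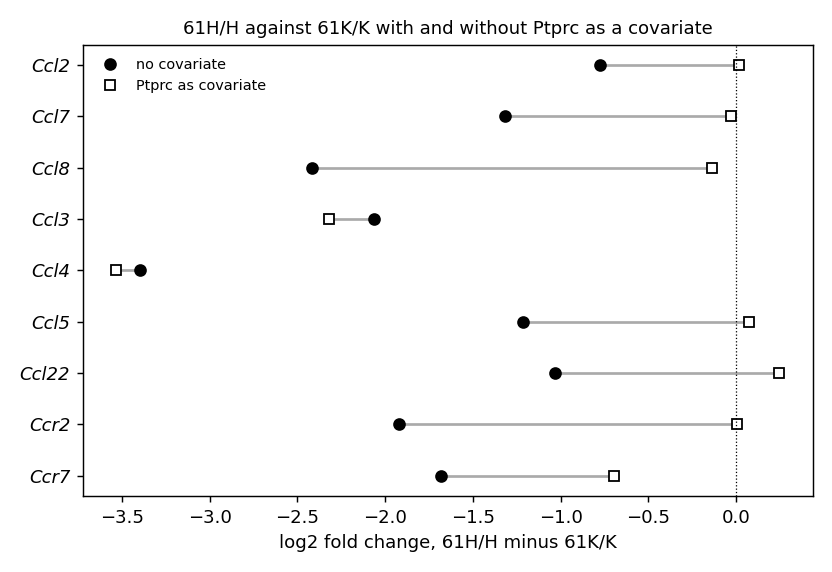
Log2 fold change of each member in 61H/H against 61K/K without a covariate (filled circles) and with log2 CPM of Ptprc as a covariate (open squares). Ccr2, Ccl8, Ccl5, Ccl7 and Ccl2 move to within 0.14 of 0, while Ccl4 and Ccl3 are at -3.53 and -2.32, with no call in that fit.

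Marker lists of leukocyte types moved in the same direction. The counts for 61H/H against 61K/K here and in the next paragraph stand beside 5.07% of all genes called lower and 9.36% in either direction. Of the macrophage and monocyte markers, 6 of 11 fell in 61H/H against 61K/K (median log2 fold change of the list -1.37), among them Adgre1, which encodes F4/80, at -1.36 ± 0.35 (edgeR adjusted p = 0.0204). The other 5 were Mrc1, Fcgr1, C1qb, C1qa and Itgam. The summed level of the macrophage list ranged from 737 to 5560 CPM in 61K/K and from 562 to 1260 CPM in 61H/H, so the groups overlapped. T cell markers fell in 3 of 8 genes (Cd2, Lck and Cd4), and Cd4, the helper T cell coreceptor, was at -1.86 ± 0.34 (adjusted p = 0.00592). Within the 18 libraries none of these 6 macrophage and 3 T cell calls held, with Adgre1 at -0.72 (adjusted p = 0.238) and Cd4 at -1.50 (adjusted p = 0.0649). The summed level of the T cell list ranged from 17.1 to 37.4 CPM in 61K/K and from 3.36 to 13.7 CPM in 61H/H, with no overlap.

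Dendritic cell markers fell in 5 of 10 genes (Ciita, H2-Ab1, H2-Eb1, Itgax and Cd209a), natural killer and cytotoxic markers in 2 of 7 (Nkg7 and Eomes), and neutrophil markers in 1 of 5 tested (Csf3r). Of these 8 calls only that of Csf3r held within the 18 libraries. The summed dendritic list ranged from 241 to 753 CPM in 61K/K and from 73.3 to 256 CPM in 61H/H, and the cytotoxic list from 8.26 to 50.1 and from 1.34 to 24.2 CPM. None of 3 tested B cell markers and none of 6 mast cell markers passed in this comparison; the summed B cell list was at 7.48 CPM or less in every tumor and that of mast cells ranged from 30.4 to 285 CPM in 61K/K and from 25.3 to 97.7 CPM in 61H/H. Markers of other cell types also went mostly below 0 in this comparison. All 6 keratinocyte markers were below 0 and none passed (median -1.36), all 6 fibroblast markers were below 0 and Pdgfra passed (median -0.44), and all 5 endothelial markers were below 0 and Tek passed (median -0.64). Of the 7 melanocyte markers 4 were below 0 (median -0.20) and Sox10 was higher. The summed melanocyte list was higher in 61H/H, at 513 to 1107 CPM against 157 to 448 CPM in 61K/K, with no overlap. In such a sum the most abundant genes weigh most, and Sox10 was the only marker of this list that was called. The sum therefore does not speak for the list as a whole, in which 4 of 7 markers were below 0. None of the calls of Sox10, Pdgfra and Tek held within the 18 libraries. The part of these cells in the member values was not tested beyond the Ptprc covariate. Every marker of these lists that had a read in any tumor had reads in all 4 genotypes. Against 61R/R, where 2.02% of all genes were called in either direction, 61H/H had lower calls in 1 T cell (Cd4), 2 cytotoxic (Nkg7 and Eomes), 3 dendritic (Ciita, H2-Eb1 and Itgax) and 2 neutrophil markers (Mpo and Csf3r), and in no macrophage marker. Of these, Cd4 and Ciita held within the 18 libraries. The melanocyte list had 5 of 7 below 0 there, with a median of -1.25 and no call. Its summed level in 61R/R ranged from 282 to 699 CPM (median 454), below the 61H/H median of 632 CPM but with overlap.

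**Figure D4:**
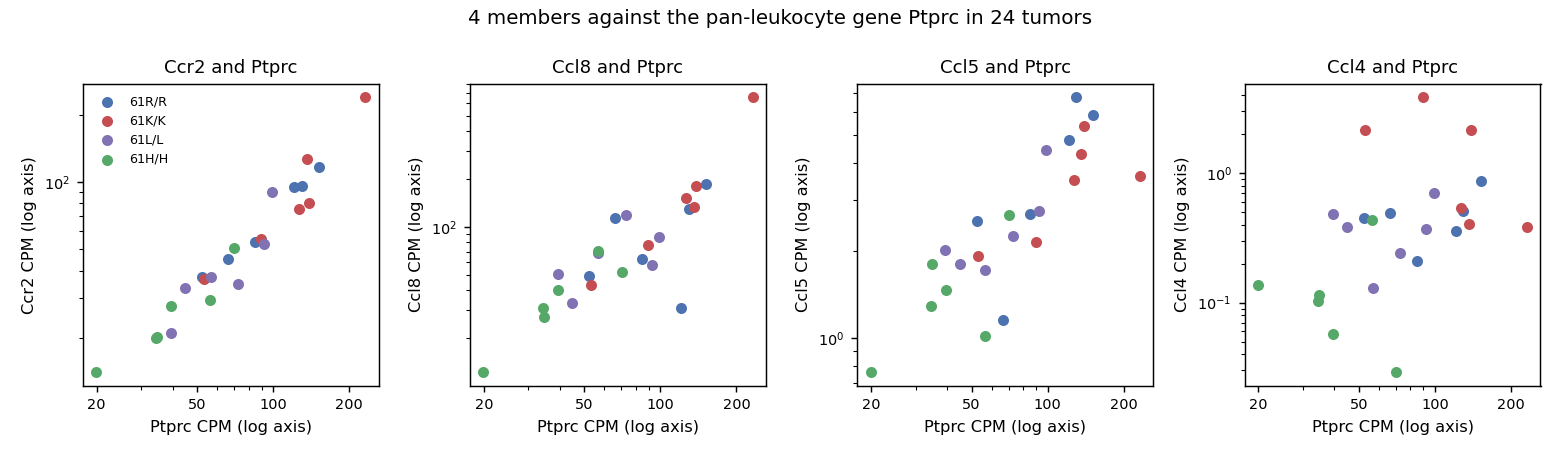
CPM of Ccr2, Ccl8, Ccl5 and Ccl4 against CPM of Ptprc in 24 tumors (both axes logarithmic), colored by genotype. Ccr2 follows Ptprc closely (Spearman rho 0.962), Ccl8 and Ccl5 less so (0.843 and 0.858), and 3 61K/K tumors stand above the rest for Ccl4 (0.464).

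How the 9 members varied together from tumor to tumor was described with 45 relations of log2 CPM, the 36 pairs of members and each member with Ptprc, over 24 tumors with a two-sided permutation test. All 36 Spearman coefficients between members were above 0, with a median of 0.394, and 14 had an adjusted p under 0.05; with Ptprc it was 5 of 9. The share among pairs of other genes, or of other genes with Ptprc, was not computed. These counts therefore do not show a trait particular to the members. The relations pool the genotypes and include differences between them, so values within genotypes follow.

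Ccr2 and Ptprc were the closest pair (r = 0.969, rho = 0.962, n = 24 tumors), each with a permutation p of 1e-05, the smallest that 100000 resamples can give, and adjusted p-values of 7.5e-05 and 0.000112. Without the 2 tumors farthest from the median of Ccr2, r was 0.959, within the 18 libraries it was 0.966 and within the other 6 it was 0.927. Within single genotypes r lay between 0.881 in 61L/L and 0.991 in 61R/R (n = 6 tumors). Ccl5 with Ptprc (r = 0.838, rho = 0.858) and Ccl8 with Ptprc (r = 0.849, rho = 0.843) had the same permutation p and adjusted p-values; their r was 0.807 and 0.741 within the 18 libraries and 0.795 and 0.755 without the 2 farthest tumors. Within genotypes r was above 0 in all 4 for both, but only 0.362 in 61R/R for Ccl8 and 0.431 within the 6 libraries for Ccl5.

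For Ccl2, Ccl3, Ccl22 and Ccl4 no relation with Ptprc passed the adjusted threshold. For Ccl2 and Ccl3, r was 0.130 and 0.160 and rho was 0.167 and 0.204, with permutation p-values of 0.549 and 0.457 for r and 0.432 and 0.337 for rho (adjusted 0.579, 0.527, 0.498 and 0.421). Leaving out 61K/K replicate 1 and 61L/L replicate 6 turned r for Ccl2 to -0.14, and within the 18 libraries it was -0.43. The r for Ccl3 was 0.234 without its 2 farthest tumors, 0.149 within the 18 libraries and 0.242 within the 6. Within genotypes it went from -0.68 in 61K/K to 0.205 in 61H/H for Ccl3, and from -0.13 in 61H/H to 0.484 in 61L/L for Ccl2.

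Ccl22 with Ptprc had r = 0.261 and rho = 0.210 (permutation p = 0.217 and 0.322, adjusted 0.279 and 0.414), with r = 0.146 without the 2 farthest tumors, 0.215 within the 18 libraries, -0.47 within the 6 and from -0.37 in 61K/K to 0.885 in 61R/R. Ccl4 with Ptprc had r = 0.432 and rho = 0.464 (permutation p = 0.0350 and 0.0244, adjusted 0.0825 and 0.0547), with r = 0.499 without the 2 farthest tumors, 0.432 within the 18 libraries, 0.502 within the 6 and from -0.67 in 61K/K to 0.361 in 61R/R.

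**Figure D5:**
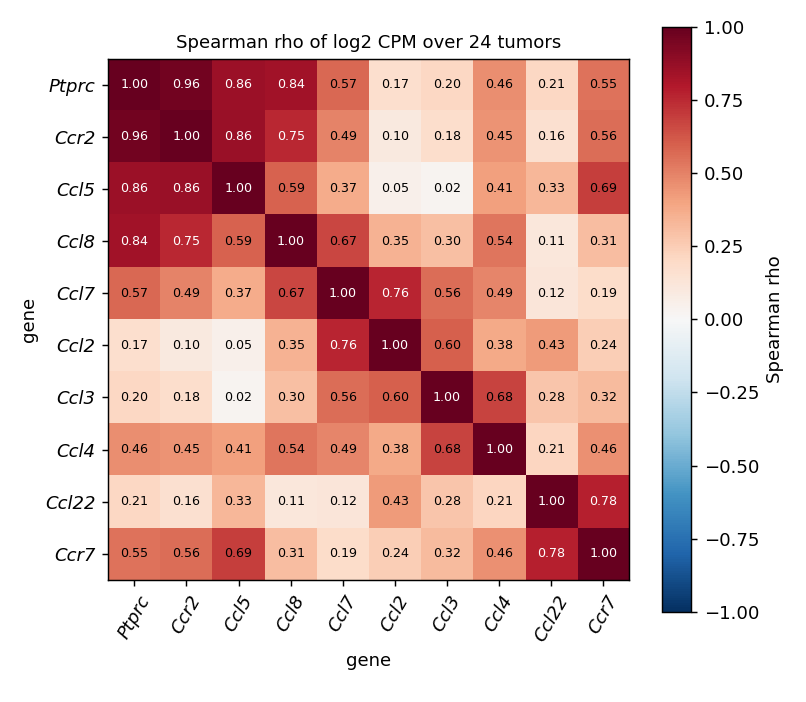
Spearman rho of log2 CPM over 24 tumors for all pairs of the 9 members and Ptprc, from blue at -1 through white at 0 to red at 1. Ptprc, Ccr2, Ccl5 and Ccl8 form 1 red corner, Ccl22 with Ccr7 (0.780) another, and Ccl7, Ccl2, Ccl3 and Ccl4 lie between.

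Among the members themselves, Ccl5 and Ccr2 had the highest rho of the 36 pairs (r = 0.826, rho = 0.864). Their r within genotypes went from 0.612 in 61K/K to 0.852 in 61R/R, and it was 0.236 within the 6 libraries. Ccl8 and Ccr2 had rho = 0.751, with r from 0.320 in 61R/R to 0.935 in 61K/K. The 3 pairs that follow were picked by function. Ccl22 and Ccr7, both typical of mature dendritic cells, had r = 0.828 and rho = 0.780 over 24 tumors (permutation p = 1e-05 and 2e-05, adjusted 7.5e-05 and 0.00018), with r from 0.872 to 0.932 within each genotype, 0.756 within the 18 libraries, 0.883 within the 6 and 0.837 without the 2 farthest tumors. The neighbors Ccl2 and Ccl7 had r = 0.726 and rho = 0.759 (permutation p = 5e-05 and 8e-05, adjusted 0.000281 and 0.000514), with r from 0.720 to 0.934 within genotypes, 0.610 within the 18 libraries, 0.655 within the 6 and 0.634 without the 2 farthest. Ccl3 and Ccl4 had r = 0.777 and rho = 0.678 (permutation p = 2e-05 and 0.00041, adjusted 0.000129 and 0.00205), with r = 0.593 without the 2 farthest tumors, 0.783 within the 18 libraries and 0.925 within the 6. Within genotypes the r of Ccl3 and Ccl4 was 0.0992 in 61R/R, 0.685 in 61H/H, 0.852 in 61L/L and 0.970 in 61K/K.

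The tested genes outside the 9 whose log2 CPM ranked most like each member over the 24 tumors are given as a description, the 2 closest for each. For Ccr2 they were Epsti1, an interferon-induced gene, and Coro1a, a leukocyte actin regulator (rho 0.963 each). For Ccl8 they were Tlr2, a bacterial lipoprotein receptor, and Lcp1, the leukocyte plastin (0.922 each). Ccl5 ranked with Itgax, the dendritic cell integrin CD11c (0.908), and Klrk1, the receptor NKG2D (0.892), and Ccl7 with the scavenger receptor Msr1 (0.849) and the transcription factor Tfec (0.828). Ccr7 was closest to the interleukin 7 receptor Il7r (0.909) and to Cd101 (0.882), and Ccl22 to Cdk5r1 (0.888) and Apol7c (0.870). Ccl4 was closest to Trim30b (0.816) and to the cytokine Il1b (0.805), Ccl2 to Ccdc115 (0.774) and Snf8 (0.726), and Ccl3 to coagulation factor F10 (0.747) and Ccdc86 (0.745).

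Il1b, the mRNA of interleukin 1 beta, shared its highest tumor with Ccl3 and Ccl4, 61K/K replicate 5 at 70.2 CPM. It ranged from 3.12 to 70.2 CPM in 61K/K (median 25.4) and from 0.764 to 4.06 CPM in 61H/H (median 1.57), and 5 of 6 61H/H tumors were below the lowest 61K/K tumor. It was the 1 gene of 17 tested inducers of CC chemokines that passed in 61H/H against 61K/K, beside 5.07% of all genes called lower. Il1b fell by 3.97 ± 0.80 on the log2 scale (edgeR adjusted p = 0.00643), a call that held within the 18 libraries and without any 1 of the 12 tumors. Its value with the Ptprc covariate was -3.40 (adjusted p = 0.346). The inducer list held cytokines, pattern receptors and transcription factors that switch on these genes, and its median was -0.80.

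The partners of the members were read from a list of 12 other receptors and 16 other ligands of the family. Of the 12 receptors, all tested, 2 fell and none rose in 61H/H against 61K/K, beside 5.07% of all genes called lower. They were Ccr1, which binds CCL3 and CCL5, at -1.48 ± 0.41 (edgeR adjusted p = 0.0265), and the scavenging receptor Ackr2 at -1.97 ± 0.62 (0.0467). Within the 18 libraries neither was called, with values of -0.78 and -2.29 and adjusted p-values of 0.300 and 0.108, and when single tumors were left out the call of Ccr1 held in 8 of 12 fits and that of Ackr2 in 2 of 12 (adjusted p up to 0.110 and 0.111). Ccr1 had a median of 26.2 CPM in 61K/K and 10.7 in 61H/H. With the Ptprc covariate Ccr1 stood at -0.23 and Ackr2 at -1.55.

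Of the 16 other ligands 11 were tested, and 1, Ccl19, fell in 61H/H. It fell against 61K/K (-2.56 ± 0.49, edgeR adjusted p = 0.00604), beside 5.07% of all genes called lower. It also fell against 61R/R (-2.21 ± 0.49, adjusted p = 0.0224), beside 2.02% of all genes called in either direction. The first call held within the 18 libraries (adjusted p = 0.0422) and the second did not (adjusted p = 0.0640). When single tumors were left out, the first held in 12 of 12 fits and the second in 6 of 12 (adjusted p up to 0.0723). CCL19 is the ligand that guides CCR7-bearing cells in lymphoid tissue. Ccl19 ranged from 1.65 to 11.4 CPM in 61K/K, from 2.45 to 11.3 CPM in 61R/R and from 0.246 to 2.63 CPM in 61H/H, and near-identical copies of it in the mouse genome make its counts uncertain. Ccl21a, the other CCR7 ligand, was listed at 0 in every tumor, and it too has near-identical copies. The mouse CCR2 ligand Ccl12 (-1.29 ± 0.50, adjusted p = 0.0996), the CCR4 ligand Ccl17 (-0.63 ± 0.97, adjusted p = 0.710), Ccr4 (-1.59 ± 1.06, adjusted p = 0.351) and Ccr8 (-1.88 ± 1.12, adjusted p = 0.293) did not pass in 61H/H against 61K/K. Ccr8, the mouse receptor of CCL8, was at 1.14 CPM or less in every tumor.

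Downstream of the receptors, 7 of 16 signaling genes fell and none rose in 61H/H against 61K/K, beside 5.07% of all genes called lower, with a list median of -0.68. They were Rgs2, Dock2, Pik3r5, Arrb2, Pik3cg, Rac2 and Plcb2, and none of these calls held within the 18 libraries. Dock2, the exchange factor that activates Rac in migrating leukocytes, was at -1.40 ± 0.28 (edgeR adjusted p = 0.00667), at -1.12 within the 18 libraries (adjusted p = 0.0767) and at -0.23 with the Ptprc covariate (adjusted p = 0.678). Against 61R/R, 2 of 16 fell in 61H/H, Pik3r5 and Rac2, beside 2.02% of all genes called in either direction. Neither of the 2 passed within the 18 libraries, and in the other 4 comparisons no gene of any list was called.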

How the data were processed

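Per the labels, flash-frozen melanomas were ground and their RNA, depleted of ribosomal RNA, went into stranded libraries; the molecule field of the labels instead gives polyA RNA. The authors aligned reads to mm10 with STAR, marked duplicates with Picard 2.17.11 and counted reads per gene with featureCounts; the deposited values are raw counts that are not normalized. The strand setting of the counting is not stated in the labels or methods, so overlapping genes, antisense genes and near-identical copies are uncertain. Each tumor was grouped by its labelled genotype. Replicate numbers follow accession order and pair nothing, and the source mouse of each tumor is not labelled, so p-values cover the spread between these samples only. Each pair of libraries within a genotype differed by far more than sampling noise (chi-square per degree of freedom at least 68.3).

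Genes with few reads were removed with filterByExpr, libraries were scaled by TMM, and all 24 were fitted together in edgeR 4.0.16 under R 4.3.3 (robust quasi-likelihood F-test) for 6 pairs of genotypes and for any difference. Benjamini-Hochberg p-values were adjusted over all 17214 genes and called under 0.05. CPM are scaled by TMM, log2 CPM use a prior count of 2, and RPKM divide CPM by exon length. Intervals are 95% and come from the fit. Relations used permutation tests with 100000 resamples (NumPy 2.4.6), adjusted over 45. Alternatives were RLE and upper quartile scaling, no filter, a filter of 1 CPM in 6 libraries, DESeq2 1.42.0, limma-voom 3.58.1, 18 libraries of 1 column name style, column name style, Xist or Ptprc as a covariate, 2 genotypes only, leaving out each tumor, and a prior count of 0.5. The fitting scripts were tested on simulated data. The members, the 15 gene lists and the tests were chosen with earlier results of these data known. The named genes are the 9 members, Nras, Ptprc, named binding partners, up to 4 called genes a list by smallest p, and the genes ranking most like each member, of which the 2 closest are printed; all called genes of a list are named where there were 7 or fewer, some of them chosen after their values were seen. A gene of the other receptors that the rule covers is not reported here and was left out of its list.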

Additional observations from a re-analysis of the deposited data

Results flagged for a closer look

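In each of the 36 combinations of a member and a genotype, the highest and the lowest tumor were compared with their nearest neighbor by Dixon's gap test on log2 CPM, which marks about 5% of groups by chance. There were 2 with a tumor set apart, both for Ccl2, a count near the share marked by chance. In 61K/K, replicate 1 was at 48.9 CPM and the next tumor at 6.94 CPM, a gap of 0.798 of the whole range. In 61L/L, replicate 6 was at 24.8 CPM and the next tumor at 5.94 CPM, a gap of 0.725 of the range. Both libraries had the less common column name style, and both tumors also had the highest Ccl22 and Ccr7 of all 24.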

How the results depend on the processing

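In 61H/H against 61K/K, 3 members were called; the count was 6 with DESeq2 (beside 13.2% of all genes), 1 within the 18 libraries (0.957%), 0 with the Ptprc covariate (0%) and 2 to 5 when single tumors were left out (3.22% to 13.3%). In 61H/H against 61R/R, 0 were called, against 2 with DESeq2 (4.93%), 2 with column name style as a covariate (3.97%), 1 within the 18 libraries (0.633%), 1 with the Xist covariate (2.3%) and 0 to 1 when single tumors were left out (0.38% to 6.3%). For any difference, 2 were called, against 1 with no filter (1.64%), 1 with the stricter filter (2.82%), 1 with the Xist covariate (2.45%), 0 within the 18 libraries (0.0627%), 0 with the Ptprc covariate (0.00581%) and 0 to 4 when single tumors were left out (0.254% to 5.86%). The stricter filter removed Ccl3 and Ccl4, so neither was tested in that setting. Of the 45 relations, 19 passed by Spearman, against 8 within the 18 libraries and 0 within the 6 libraries, where fewer tumors entered.

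The call of Ccr2 in 61H/H against 61K/K was lost within the 18 libraries (-1.33, adjusted p = 0.0663) and with the Ptprc covariate, and that of Ccl8 within the 18 libraries (-1.34, adjusted p = 0.193), with the Ptprc covariate, with 2 genotypes only (adjusted p = 0.0568) and without 61K/K replicate 3. Among the settings in which Ccl4 was tested, its call was lost with the Ptprc covariate alone, where its value was -3.53 and no gene was called. In 61H/H against 61R/R Ccl4 passed without 61H/H replicate 4 (-2.44, adjusted p = 0.0259).

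Signs turned as follows, all of values with no call in that setting. With the Ptprc covariate, 61H/H against 61K/K gave 0.0055 for Ccr2, 0.075 for Ccl5, 0.015 for Ccl2, 0.25 for Ccl22 and 0.25 for Adgre1; 61H/H against 61R/R gave 0.62 for Ccl7, 0.15 for Ccl8, -0.18 for Ccl3, 0.56 for Ccr1 and 0.33 for Adgre1; and 61K/K against 61R/R gave -0.0095 for Ccr2. Column name style as a covariate gave 0.22 for Ccl2 in 61H/H against 61K/K and -0.076 for Ccr2 in 61K/K against 61R/R, and the 18 libraries gave 0.64 and -0.24. limma-voom gave -0.29 for Ccl3 in 61H/H against 61R/R. Leaving out single tumors gave -0.77 to 0.27 for that value, -1.05 to 0.38 for Ccl2 in 61H/H against 61K/K and -0.38 to 0.033 for Ccl5 in 61K/K against 61R/R. In the comparisons with 61L/L, 13 of 27 member values turned sign in at least 1 alternative and none was called in any. The cause of these changes was not tested. No paired analysis was possible because the labels give no replicate numbers, and no pair of genotypes shares more than 1 title number. Precision is limited by few reads for Ccl3, Ccl4 and Ccr7.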
